A study of Mus musculus with 2 samples.

Results

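The plasma protein genes described here are Alb, Ahsg, Afp, Ttr, Apoa1, Apoa2, Ambp, Trf, Apoe and Serpina1a, whose products circulate in blood. They were followed in mouse kidney at postnatal day 3 through every probe set whose annotation gives 1 of these symbols and no other gene. The rule found 20 probe sets for the 10 genes, of 45037 probe sets on the array. The genes were chosen with the difference between the arrays already known, so their values are a description and carry no test.

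RNA from 1 kidney sample of the B6C3Fe a/a-bpck mutant, which develops polycystic kidney disease, was compared with RNA from 1 wild-type kidney sample, for which the labels name no strain. Both were taken at postnatal day 3, and each was hybridised to 1 Affymetrix Mouse 430 2.0 array, on which a probe set is a group of short probes for 1 transcript. Neither the number and sex of the animals behind a sample nor the mutated gene is stated in the labels, and no treatment other than genotype separates the groups. With 1 array per group the spread between animals is unknown, so no p-value is given and each difference describes these arrays only.

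Most plasma proteins are made by hepatocytes in the liver and secreted into blood, under transcription factors of the HNF1, HNF4, FOXA and C/EBP families. Several of these factors also act in the proximal tubule, and the fetal and neonatal kidney and the yolk sac make some of the same transcripts. Small plasma proteins that pass the glomerular filter are taken up by the proximal tubule through the receptors megalin (Lrp2) and cubilin (Cubn), so that the protein can be present in a kidney that makes little of its RNA. The arrays measured RNA and not protein.

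Alb and Afp belong to 1 gene family and lie next to each other on mouse chromosome 5, with 0 annotated genes between them, yet Alb read higher in the mutant array and the bright Afp probe sets lower, these by less than 1.5-fold. Their promoter windows are shown for that reason, with those of Ahsg, which had the largest fold on the higher side, and of Serpina1a, the 1 gene at least 1.5-fold lower. Sequences are from RefSeq on build GRCm38.p6 and run 5′ to 3′ on the gene's strand, with 250 bases before the annotated start and 50 after it. The windows are chr5:90460620-90460919 on the plus strand, chr5:90490464-90490763 on the plus strand, chr16:22891765-22892064 on the plus strand and chr12:103863570-103863869 on the minus strand. Capitals mark GTTAAT, the half-site of the HNF1 motif, searched on both strands.
Alb: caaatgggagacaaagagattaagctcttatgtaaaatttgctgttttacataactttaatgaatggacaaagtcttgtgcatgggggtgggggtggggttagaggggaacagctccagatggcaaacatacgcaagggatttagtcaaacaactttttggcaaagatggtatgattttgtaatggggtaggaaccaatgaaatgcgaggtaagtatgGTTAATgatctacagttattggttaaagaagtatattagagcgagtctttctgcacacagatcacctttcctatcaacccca
Afp: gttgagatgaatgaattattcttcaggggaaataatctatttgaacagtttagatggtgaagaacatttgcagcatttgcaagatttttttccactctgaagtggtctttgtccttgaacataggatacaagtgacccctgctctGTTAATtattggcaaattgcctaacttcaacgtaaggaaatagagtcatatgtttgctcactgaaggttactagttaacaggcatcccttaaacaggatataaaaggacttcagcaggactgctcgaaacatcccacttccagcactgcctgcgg
Ahsg: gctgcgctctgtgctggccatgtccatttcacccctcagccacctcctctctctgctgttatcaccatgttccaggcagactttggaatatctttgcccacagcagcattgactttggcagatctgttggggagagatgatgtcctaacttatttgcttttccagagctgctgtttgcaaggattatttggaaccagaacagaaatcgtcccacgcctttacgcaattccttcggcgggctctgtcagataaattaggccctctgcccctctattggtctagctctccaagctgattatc
Serpina1a: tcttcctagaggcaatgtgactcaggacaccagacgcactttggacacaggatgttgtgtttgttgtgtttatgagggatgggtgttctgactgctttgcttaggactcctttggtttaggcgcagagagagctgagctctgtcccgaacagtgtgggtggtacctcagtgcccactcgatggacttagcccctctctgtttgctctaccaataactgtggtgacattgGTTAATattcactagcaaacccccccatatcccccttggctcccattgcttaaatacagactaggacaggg

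GTTAAT began 32 bases before the start in Alb, 105 bases before it in Afp and 21 bases before it in Serpina1a, and it was not among the letters of the Ahsg window. It was present in 4 of the 11 windows of the 8 member genes that matched, the fourth being 1 of the 3 Apoe windows, against 7.10% of all 32851 windows of this length. The motif was thus found in windows of genes that were higher and of genes that were lower in the mutant array. A match describes the letters and does not show binding. Windows of Trf and Ttr were not used here.

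Albumin, transferrin and fetuin-A transcripts were higher in the mutant array by more than 1.5-fold, and alpha-fetoprotein and transthyretin transcripts differed by less than that. Alb encodes albumin, the main carrier and osmotic protein of plasma. Its 1 probe set read 155 in the mutant array and 60.7 in the wild-type array, 2.56-fold higher. The authors' deposited table puts bounds of 2.28 and 2.91 on that fold, from the errors of the probes on each array, which hold no variation between animals. Trf encodes transferrin, the iron carrier of blood, and read 37.9 in the mutant array and 23.2 in the wild-type array, 1.64-fold higher. Ahsg encodes fetuin-A, a plasma protein that keeps calcium phosphate from precipitating. It read 26.6 in the mutant array and 7.45 in the wild-type array, 3.57-fold higher, with bounds of 2.77 and 5.03 in the authors' deposited table. The wild-type value of Ahsg had a model standard error of 17.6%, the widest of any member probe set above the filter.

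Counts and folds follow 1 rule. A probe set was kept when 1 array or both read at least 16.53, the median of all intensities, values under the 20th percentile (4.2) were raised to it, and 1.5-fold was the threshold. Of the 20 member probe sets 17 were kept. In the mutant array 7 of them were higher by 1.5-fold or more, and 1 was lower by that much. Over all 23491 probe sets kept, the share higher by 1.5-fold or more was 2.25% and the share lower was 3.85%. The members were chosen on this contrast, so nothing is read from their larger share. At least 2-fold higher were 4 member probe sets, with 0.528% of all probe sets, and 0 were at least 2-fold lower, with 0.741% of all probe sets. Ahsg and 2 of the Apoa1 probe sets passed the filter through the mutant array only, and such probe sets had to differ.

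**Figure D1:**
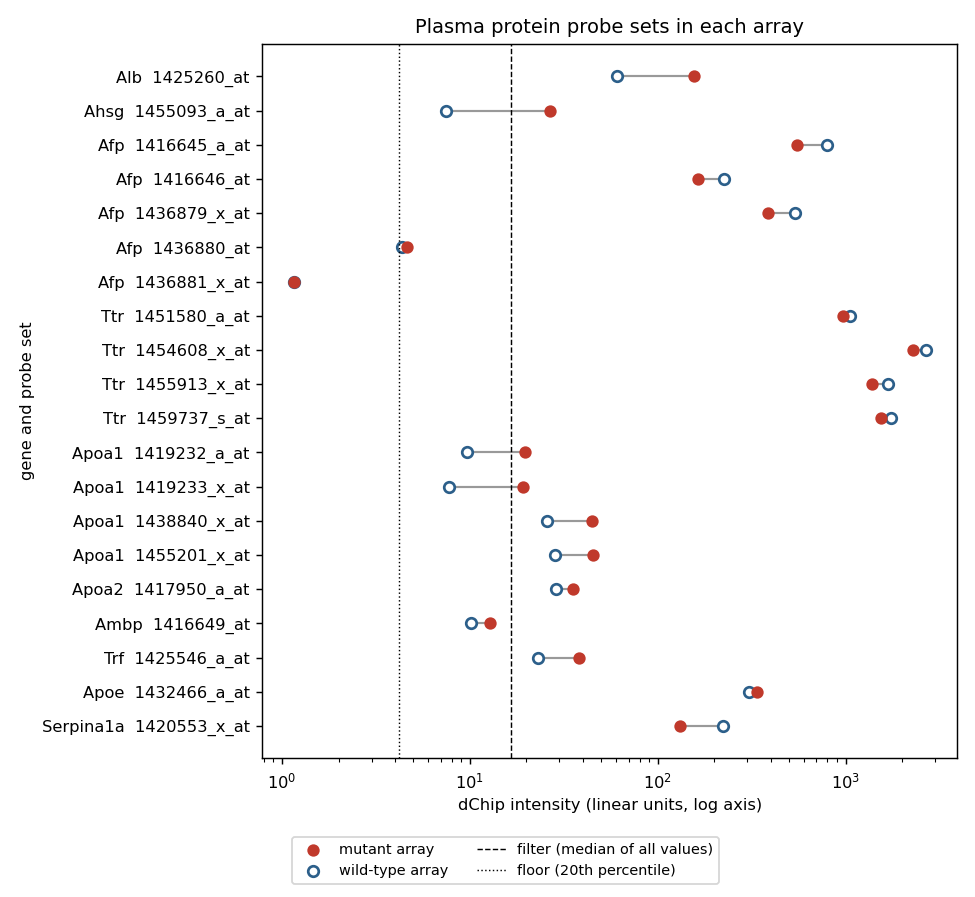
Intensity of each member probe set in the mutant array (filled) and the wild-type array (open), on a log axis, with the filter (dashed) and the floor (dotted). Alb, Ahsg, Apoa1 and Trf lie to the right in the mutant array, the bright probe sets of Afp, Ttr and Serpina1a to the left, and 3 probe sets stay under the filter in both arrays.

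Afp encodes alpha-fetoprotein, the albumin-like carrier of fetal plasma that is switched off in liver after birth. Of its 5 probe sets, 1416645_a_at read 552 in the mutant array and 796 in the wild-type array, and 1436879_x_at read 384 in the mutant array and 539 in the wild-type array. The third, 1416646_at, read 164 in the mutant array and 226 in the wild-type array. These 3 probe sets were all lower in the mutant array, by 1.38-fold to 1.44-fold, with a mean log2 difference of -0.49 and an SD over probe sets of 0.03. None of them reached 1.5-fold. The remaining 2 probe sets were dim, with 4.64 in the mutant array and 4.36 in the wild-type array for 1436880_at, and 1.16 in both arrays for 1436881_x_at. A transcript that the bright probe sets measure strongly thus gave almost no signal on 2 others annotated to it.

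Ttr encodes transthyretin, the carrier of thyroid hormone and of the retinol-binding protein. Its probe set 1454608_x_at read 2275 in the mutant array and 2674 in the wild-type array, and 1459737_s_at read 1543 in the mutant array and 1741 in the wild-type array. For 1455913_x_at the values were 1377 in the mutant array and 1680 in the wild-type array, and for 1451580_a_at 974 in the mutant array and 1053 in the wild-type array. All 4 read lower in the mutant array, by 1.08-fold to 1.22-fold, close to the range within 1.2-fold that held 74.7% of all probe sets kept. The mean log2 difference was -0.20, with an SD over probe sets of 0.08. Over 5269 genes with more than 1 probe set kept, the median SD among a gene's log2 differences was 0.13, so the probe sets of Ttr lay close together. Probe sets of 1 gene share the same pair of RNA samples and are not replicates.

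Of the member apolipoproteins, the protein part of lipid particles in blood, Apoa1 was past 1.5-fold and Apoa2 and Apoe were not. Apoa1, the main protein of high-density lipoprotein, had 4 probe sets. They read 45.1, 44.6, 19.6 and 19.1 in the mutant array, against 28.4, 25.8, 9.64 and 7.76 in the wild-type array, in the same order of probe sets. All 4 were at least 1.5-fold higher, by 1.58-fold, 1.73-fold, 2.04-fold and 2.46-fold. The fold was larger on the dimmer probe sets, and the SD of 0.28 over the 4 log2 differences exceeded the median of 0.13 for genes with several probe sets. Apoa2, the other main protein of high-density lipoprotein, read 35.4 in the mutant array and 28.7 in the wild-type array, 1.23-fold higher. Apoe, a ligand of lipoprotein receptors that macrophages and many other cells also make, read 338 in the mutant array and 305 in the wild-type array, 1.11-fold higher. Apoa2 and Apoe did not reach the 1.5-fold threshold.

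Of the protease inhibitors, Serpina1a was lower in the mutant array and Ambp was too dim to be kept. Serpina1a encodes a mouse alpha-1-antitrypsin, an inhibitor of neutrophil elastase, and its probe set read 131 in the mutant array and 223 in the wild-type array, 1.70-fold lower. The authors' deposited table gives bounds of 1.64 and 1.76 on the size of that fold. The mouse genome holds several near-identical copies of this gene, and the probe set has the suffix _x_at, which marks probes that can bind related transcripts, so the value may be shared between copies. A probe set annotated to Serpina1a and Serpina1b together read 48.7 in the mutant array and 49.8 in the wild-type array, a 1.02-fold difference. One annotated to 6 genes that include Serpina1a was under the filter, with 6.89 in the mutant array and 8.48 in the wild-type array. The lower value of Serpina1a was therefore not matched in size by the probe sets it shares with other copies. Ambp, whose precursor yields alpha-1-microglobulin and the trypsin inhibitor bikunin, stayed under the filter, with 12.7 in the mutant array and 10.2 in the wild-type array.

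By intensity class, the members are described without support for a pattern, since they were chosen on this contrast and Afp, Ttr and Apoa1 count several times. Of the 10 member probe sets that reached the 75th percentile of intensity (83.51) in their brighter array, 2 were higher in the mutant array (Alb and Apoe) and 8 were lower (Afp, Ttr and Serpina1a). By gene, that class held Alb and Apoe on the higher side and 3 genes on the lower side. The 7 between the filter and that percentile were Ahsg, Apoa2, Trf and the 4 of Apoa1, all with higher values in the mutant array, 3 of them having passed the filter through that array only. Among all probe sets, 48.7% of the bright class and 43.2% of the dim class were higher in the mutant array. A 1.5-fold higher value was reached by 1.03% of all bright probe sets and a 1.5-fold lower one by 0.694%. In the dim class these shares were 3.45% and 6.96%. Over all probe sets kept, 99.8% had a lower log2 difference than Alb and 1.86% a lower one than Serpina1a.

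**Figure D2:**
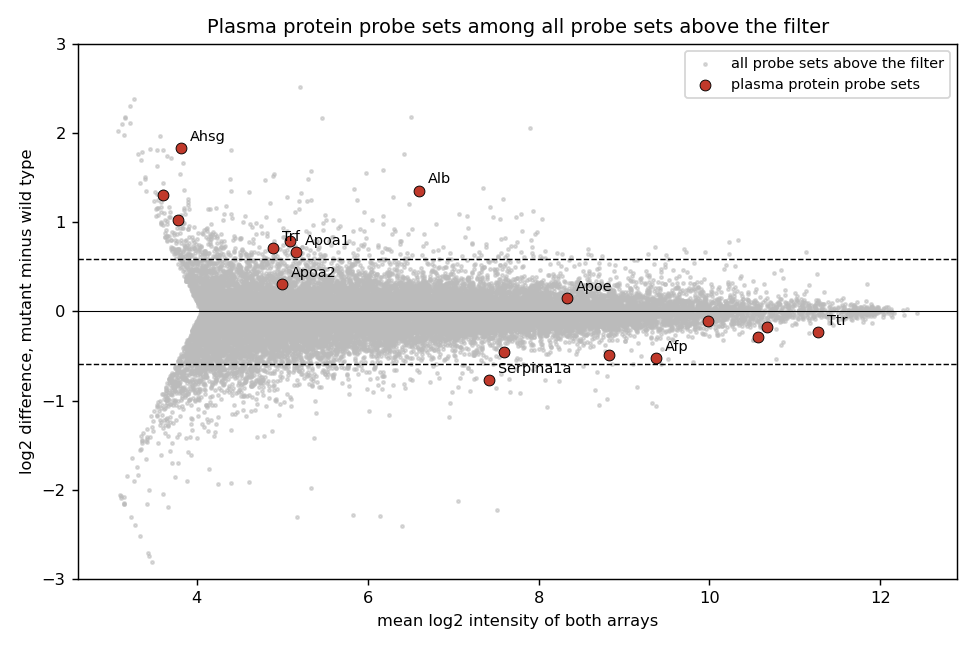
Log2 difference, mutant minus wild type, against the mean log2 intensity of both arrays, for all 23491 probe sets above the filter (grey) and the 17 member probe sets above it (red). Dashed lines mark 1.5-fold, and 9 probe sets lie outside the axis. Alb, at a log2 difference of 1.36, stands above most probe sets of like intensity, and the Ttr probe sets lie near 0.

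By the authors' own criteria 2 members were called, whether the fold or its lower bound is used. The header of the authors' deposited table sets a threshold of 1.5, on the lower bound of the fold, and a difference of 20 units, and its last line gives 354 probe sets as meeting them. A fold of at least 1.5 with a difference of at least 20 in the deposited columns was met by 354 probe sets. Those higher in the mutant array made up 0.406% of all probe sets and those lower 0.38%. Alb, with a difference of 94.5, and Serpina1a, with a difference of 91.95 in the other direction, met both conditions. Ahsg had the larger fold of 3.57 but a difference of 19.15, just short of the limit. The Apoa1 and Trf probe sets fell short of the difference.

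Other plasma protein genes were followed through 4 further lists, of which 59 genes had a probe set and 23 passed the filter. They were divided: 14 were higher and 9 lower in the mutant array. Their median was 0.09 on the log2 scale, with a 95% interval over genes of -0.09 to 0.32. That interval treats genes read on the same pair of arrays as independent. It holds no variation between animals and is no test of genotype. Over all 13146 genes kept, with 1 probe set each, 48.0% were higher and the median was -0.01. At least 1.5-fold higher were 3 of the 23 (2.01% of all genes) and at least 1.5-fold lower was 1 (2.57% of all genes). Pzp, among the 3, passed the filter through the mutant array only, so it had to be higher. Apoc2, the 1 lower, and Gc, also among the 9, passed through the wild-type array only, so they had to be lower. The remaining 36 stayed under the filter, among them Hpx, Apob, Plg, F2 and Fetub, and 10 of the 59 lay under the floor in both arrays.

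Among carriers, Cp and Serpina6 were at least 1.5-fold higher. Cp encodes ceruloplasmin, the copper-carrying ferroxidase of plasma, and its brightest probe set read 68.7 in the mutant array and 33.8 in the wild-type array, 2.03-fold higher. All 4 Cp probe sets above the filter were higher, with log2 differences of 0.50 to 1.02. That at 25.1 in the mutant array and 12.7 in the wild-type array passed through the mutant array only. It therefore had to differ. The Cp probe sets under the filter were divided. In the mutant array they read 6.23 and 8.49 (lower) and 14.65 and 4.36 (higher). The wild-type values, in the same order, were 14.79, 10.28, 10.83 and 1.39. Serpina6 encodes the corticosteroid-binding globulin and read 1700 in the mutant array and 974 in the wild-type array, 1.75-fold higher. Gc, the vitamin D-binding member of the albumin family, read 12.9 in the mutant array and 18.4 in the wild-type array. The haemoglobin-binding Hp read 28.4 in the mutant array and 22.5 in the wild-type array. Of the 3 further apolipoproteins kept, Apoc2 was 1.62-fold lower (12.3 in the mutant array and 19.8 in the wild-type array), Apom read 389 in the mutant array and 339 in the wild-type array, and Apoc1 read 43.9 in the mutant array and 46.2 in the wild-type array.

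Coagulation and fibrinolysis genes were higher for 6 of 10 kept, with a median of 0.06. On their brightest probe sets 0 reached 1.5-fold in either direction. A second probe set of Kng1 was past 1.5-fold, with a log2 difference of 0.78 against 0.10 on its brightest. By brightest probe set the largest difference was in Proc, the anticoagulant protein C, with 70.6 in the mutant array and 47.5 in the wild-type array. F10 read 28.9 in the mutant array and 22.4 in the wild-type array, the fibrinogen chain Fgb 22.8 in the mutant array and 18.6 in the wild-type array, and Pros1, the cofactor of protein C, 121 in the mutant array and 140 in the wild-type array. Among 5 kept serpins and other inhibitors 4 were higher. Pzp, a broad protease inhibitor of the alpha-2-macroglobulin family, was 1.71-fold higher, at 20.4 in the mutant array against 11.9 in the wild-type array. Serpina10 read 92.4 in the mutant array and 74.2 in the wild-type array, and Spp2 2060 in the mutant array and 1904 in the wild-type array. Serpina1b, a copy of the antitrypsin gene, read 46.7 in the mutant array and 57.2 in the wild-type array.

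**Figure D3:**
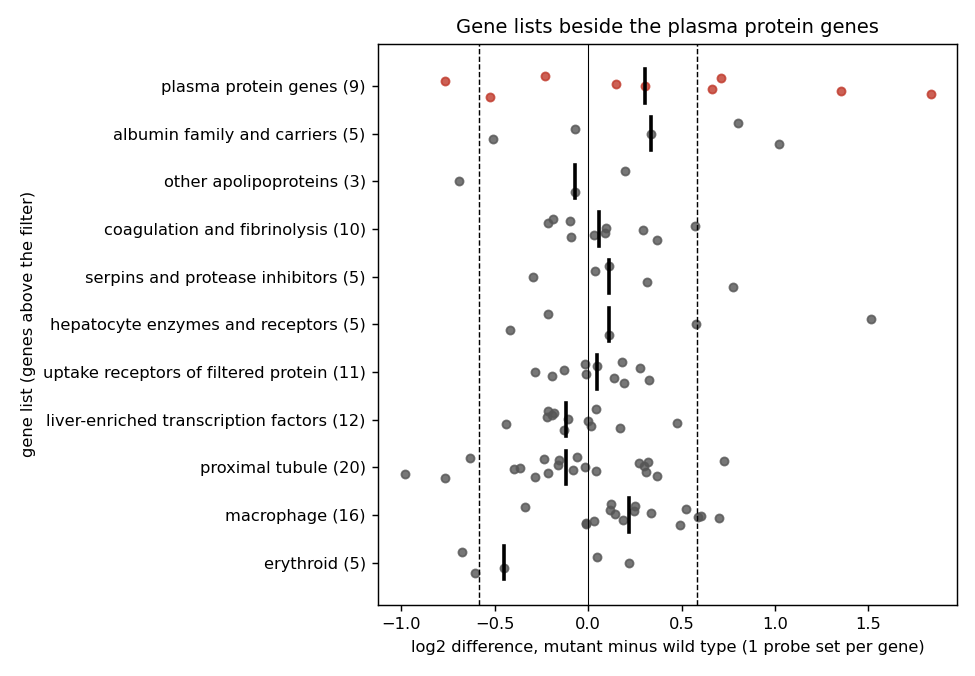
Log2 difference, mutant minus wild type, of each gene above the filter, 1 probe set per gene, by list, with the number of genes in brackets. Black bars are list medians and dashed lines mark 1.5-fold. The plasma protein genes at the top, chosen on this contrast, span -0.77 to 1.84, and the adrenal and sex-linked lists are not drawn.

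Since these genes are best known from liver, hepatocyte genes, mostly of enzymes and receptors, were read beside them. Of 25 with a probe set, 5 passed the filter, 3 higher and 2 lower, with a median of 0.11. Bhmt, among the 3, passed through the mutant array only, and Asgr1, among the 2, through the wild-type array only. Both therefore had to differ. Cyp2e1, a cytochrome P450 of liver and kidney, was 2.86-fold higher, at 50.3 in the mutant array against 17.6 in the wild-type array. Bhmt, a methyltransferase of methionine metabolism, read 20.9 in the mutant array and 14.0 in the wild-type array. Asgr1, the asialoglycoprotein receptor of hepatocytes, read 15.9 in the mutant array and 21.3 in the wild-type array. Slc10a1, their bile acid transporter, read 64.8 in the mutant array and 75.2 in the wild-type array. Its second probe set was higher, with 26.0 in the mutant array and 21.8 in the wild-type array. The urea cycle genes Cps1 (5.35 in the mutant array and 2.10 in the wild-type array) and Arg1 (8.25 in the mutant array and 8.53 in the wild-type array) stayed under the filter. Cyp3a11, Cyp2c29, Ces1c and Gys2 lay under the floor in both arrays. The part of liver RNA in the Alb and Ahsg values was not tested.

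Kidney identity was plain in both arrays, with 20 of 20 proximal tubule genes above the filter. Of these 7 were higher and 13 lower in the mutant array, with a median of -0.12. Slc3a1, a subunit of the cystine transporter, was 1.65-fold higher, at 845 in the mutant array against 511 in the wild-type array. G6pc, which releases free glucose at the end of gluconeogenesis, was 1.98-fold lower (317 in the mutant array and 625 in the wild-type array), and Acy3, an aminoacylase, 1.70-fold lower (206 in the mutant array and 351 in the wild-type array). Slc6a19, a neutral amino acid transporter, was 1.55-fold lower (39.8 in the mutant array and 61.7 in the wild-type array). In whole-kidney RNA, fewer cells of a type and less RNA per cell cannot be told apart.

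The receptors that take filtered plasma protein into the proximal tubule differed by less than 1.5-fold on their brightest probe sets. Their median log2 difference was 0.05, and 6 of the 11 kept were higher. Cubn read 1071 in the mutant array and 855 in the wild-type array, and its second probe set was 1.53-fold higher, with 280 in the mutant array and 183 in the wild-type array. Lrp2 read 1148 in the mutant array and 948 in the wild-type array. Fcgrt, the receptor that returns albumin and antibodies to blood, read 285 in the mutant array and 326 in the wild-type array.

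Liver-enriched transcription factors were lower for 7 of 12 kept, with a median of -0.12, and 0 reached 1.5-fold on their brightest probe sets. Foxa1 read 33.9 in the mutant array and 46.0 in the wild-type array, and Nr1h4, the bile acid receptor, 35.1 in the mutant array and 40.9 in the wild-type array. Zhx2 and Zbtb20 are known in mouse liver as repressors of Afp after birth. Zhx2 read 125.5 in the mutant array and 121.7 in the wild-type array. Zbtb20 was lower on all 9 of its probe sets above the filter, with log2 differences of -0.98 to -0.12, and its brightest read 205 in the mutant array and 238 in the wild-type array. The probe set at -0.98 read 8.75 in the mutant array and 17.3 in the wild-type array. It passed the filter through the wild-type array only and so had to differ, and the next lowest difference was -0.39.

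Markers of other cell types, and sex-linked genes, differed between the samples. Macrophage genes, read because macrophages make Apoe, were higher for 13 of 16, with a median of 0.22 and a summed intensity of 1648 in the mutant array and 1363 in the wild-type array. The largest differences were in Cd163 (29.4 in the mutant array and 18.1 in the wild-type array), Csf1r (326 in the mutant array and 214 in the wild-type array), Cd68 (27.8 in the mutant array and 18.5 in the wild-type array) and Lyz2 (182 in the mutant array and 127 in the wild-type array). Erythroid genes, read with blood and fetal liver in mind, were lower for 3 of 5 kept. Their sum was 321 in the mutant array and 419 in the wild-type array. Alas2, the haem synthesis enzyme of red cells, was 1.52-fold lower (113 in the mutant array and 172 in the wild-type array). The anion exchanger Slc4a1 was 1.60-fold lower (76.9 in the mutant array and 123 in the wild-type array). Whether its RNA came from blood or from kidney cells was not tested. The erythropoietin receptor gene Epor read 12.9 in the mutant array and 17.7 in the wild-type array. It passed the filter through the wild-type array only, so it had to differ. Hba-a1 was higher, with 32.8 in the mutant array and 28.2 in the wild-type array. The adrenal and chromaffin list was lower for 9 of 10 kept, with Hsd3b1, Chgb, Chga and Cyp11b1 farthest apart. All 9 passed the filter through the wild-type array only, so they had to be lower. Of the 6 under the filter, Cyp11a1 was higher, at 9.70 in the mutant array against 5.69 in the wild-type array, and the rest were lower. The list summed to 257 in the mutant array and 835 in the wild-type array. Of the sex-linked genes, Xist read 1113 in the mutant array and 4.67 in the wild-type array, and the 4 Y-linked genes were 4.38-fold to 4.93-fold lower. The Y-linked genes were still read in the mutant array, Ddx3y at 84.2 against 394 in the wild-type array. Sex-linked expression differed together with genotype, so that with 1 sample per group an effect of sex and one of genotype cannot be told apart in any difference given here. The part of the macrophage, blood and adrenal RNA in the plasma protein values was not tested.

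Processing changed sizes more than directions. Each of the 10 genes kept the sign of its log2 difference under every alternative that gave it a value, though only the scalings and probe set choices could reverse it. Alb stayed between 1.01 and 1.43, Afp between -0.53 and -0.45, and Serpina1a between -0.77 and -0.65. Ahsg was less stable in size, at 0.57 to 1.91, since a pseudocount of 32 exceeds both of its values. The background itself moved with scaling: the arrays as deposited gave 528 probe sets higher by 1.5-fold or more and 904 lower, and array medians set equal gave 771 higher and 645 lower.

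**Figure D4:**
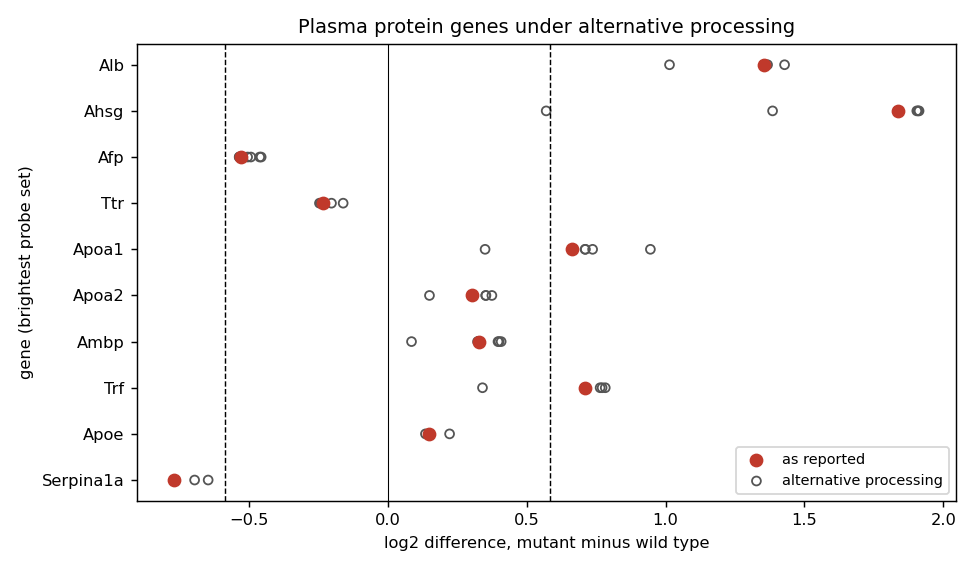
Log2 difference, mutant minus wild type, of the brightest probe set of each gene as reported (red) and under each alternative (open), with dashed lines at 1.5-fold. No gene crosses 0, and Ahsg, Apoa1 and Trf drop under the 1.5-fold line at a pseudocount of 32.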

How the data were processed

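Total RNA of both kidney samples was labelled from 100 ng, per the labels' protocols, and read on Affymetrix Mouse 430 2.0 arrays. The authors computed each intensity, an expression index per probe set on a linear scale, in dChip, per the series' design text. For the background, the baseline array and the normalization, the method is not given in the sources used here. Per the file headers, the deposited standard errors (a score per value, from the probes of 1 array) were used in averaging, control probe sets were omitted, and a signed fold with bounds was deposited. The authors' difference of intensities is mutant minus wild type. Intensities were equal in both deposited files for all 45037 probe sets. In the arrays they summed to 5175900 (mutant) and 5173132 (wild type), with medians of 16.13 and 16.97, and the number of arrays limits the precision.

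Intensities were used as deposited with Python 3.11.15 and pandas 2.3.3. A floor of 4.2 was applied before taking log2, and differences are mutant minus wild type. Of 37579 probe sets with 1 gene, 34316 took their symbol from a RefSeq table by gene number. For lists, each gene had 1 probe set, that with the highest mean log2 intensity, and medians carry a distribution-free 95% interval over genes where 6 or more were kept. Sums over lists use every gene with a probe set. The members and lists were chosen with earlier results of these data known. Named genes were all members and up to 4 of each list with the largest difference. Some list genes are not reported here. List genes and probe sets under the filter, and Zhx2, were named after their values were seen. So were single probe sets beyond the brightest of Cubn, Kng1, Cp, Slc10a1 and Zbtb20. Alternatives were 3 scalings, floors, a pseudocount of 32, filters, thresholds, probe set choices and the series matrix. The counting rule was tried on simulated data with less spread than these arrays, and with changes planted in brighter probe sets only. That trial says nothing of how the rule performs on dim probe sets.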

Additional observations from a re-analysis of the deposited data

How the results depend on the processing

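No paired analysis was possible because each group has 1 array, and for the same reason no replicate could be left out. Of the 97 values of single members under alternatives, 89 moved by no more than 0.13 on the log2 scale, the median SD between probe sets of a gene, 8 moved by more, and 0 changed sign. Many of the 97 could not move. The series matrix holds the same intensities, and the filters and removal of the floor leave these differences as they were. The mean per gene equals the reported value where 1 probe set was kept. Only the scalings and the probe set choices could reverse a sign. The member probe sets at least 1.5-fold higher, 7 as reported, numbered 1 with a pseudocount of 32, 1 with the filter at the 75th percentile, 4 at 2-fold, 1 without probe sets of the suffixes _x_at, _s_at and _a_at, where 2 probe sets remained above the filter, and 4 with 1 mean per gene. The 1 at least 1.5-fold lower became 0 at 2-fold, 5 at 1.2-fold and 0 without those suffixes. Over all probe sets, higher and lower counts were 96 and 63 with the pseudocount, 2323 and 3416 with no filter, 120 and 81 with the filter at the 75th percentile, 124 and 174 at 2-fold, 2476 and 3462 at 1.2-fold, and 264 and 347 with 1 mean per gene. Quantile scaling gave 690 and 689, and loess 683 and 704. The median over member probe sets, 0.15 as reported, was -0.26 with the filter at the 75th percentile, where Ahsg, Apoa1, Apoa2 and Trf drop out. Dim values rest on a background step whose method the sources do not give.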

Other observations

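The header of the authors' deposited table says that the lower bound of the fold was used for the threshold of 1.5, together with a difference of 20 units. By the lower bound, 267 probe sets meet both conditions, and by the fold itself 354, the number the table's last line states. Alb and Serpina1a meet the conditions either way.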
